A study of Mus musculus with 3 samples.

Results

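Tsc22d1, Tsc22d2, Tsc22d3 and Tsc22d4, the genes of the mouse TSC22 domain family, were followed together with Nrbp1 and Wnk1, which encode a pseudokinase and a kinase known as partners of these proteins, in the RNA of purified platelets. Platelets are the small blood cells without a nucleus that megakaryocytes shed. The members were taken by name, as the family and its partners, and the family was selected on the CPM of Tsc22d1 (counts scaled so that a library sums to 1000000), which was seen to be among the highest in these same libraries. Levels are therefore described without a test. All 6 genes were found by Entrez number among the 9822 genes of the count tables.

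The platelets came from the blood of BALB/c males, 20 weeks old and wild type for Nxf1, which encodes the main carrier of mRNA out of the nucleus. The single group held 3 libraries (replicates 1 to 3), each labelled as a batch of its own, so that sample and batch cannot be told apart. Nothing states that each library came from a separate animal. SDs and p-values therefore describe how far these samples differ, and that difference may be technical. Library totals lay between 25189231 and 26974129 counts. The platelet markers were all found (12 of 12), at a summed 38101, 39870 and 40728 CPM in replicates 1, 2 and 3. Red cell markers (8 of 11) summed to 48868, 5227 and 6825 CPM, and B cell markers (7 of 7) to 252, 245 and 399 CPM. T cell (5 of 6), neutrophil (4 of 5) and natural killer cell (3 of 4) markers stayed between 5.67 and 30.0 CPM in sum, and monocyte and macrophage markers (6 of 6) lay between 1304 and 1528 CPM, nearly all of it Lyz2. No listed marker in the tables was at 0 in any library. Cd3e, Ly6g, Klrb1c and the red cell markers Hbb-b2, Hbb-bt and Ahsp were not in the tables used here. The red cell sums are therefore those of the markers found. In such bulk RNA, fewer cells of a type and less RNA per cell cannot be told apart.

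TSC22 domain proteins carry a short conserved segment, the TSC box, followed by a leucine zipper, through which they form dimers with themselves and with each other. Tsc22d1 was first cloned from mouse cells as a transcript induced by transforming growth factor beta, and Tsc22d3 is better known as GILZ, the glucocorticoid-induced leucine zipper. Genes of the family give long and short proteins from different start sites, and the long forms are known, from fly and human cells, to bind NRBP1 and to take part in WNK signalling. WNK1 senses chloride and cell volume and acts through the kinases SPAK and OSR1 on cation-chloride cotransporters of the plasma membrane.

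The family members are recognised by 1 stretch of coding sequence, which is shown to make clear how alike the genes are whose levels are compared. The stretch holds the 120 coding bases of Tsc22d1 with the highest summed identity to their best match in each other family gene. Likeness of the other genes to each other played no part in the choice. Sequences came from GENCODE M21 transcripts (GRCm38), read 5′ to 3′ on the coding strand. Capitals mark bases identical in all 4 genes.
Tsc22d1: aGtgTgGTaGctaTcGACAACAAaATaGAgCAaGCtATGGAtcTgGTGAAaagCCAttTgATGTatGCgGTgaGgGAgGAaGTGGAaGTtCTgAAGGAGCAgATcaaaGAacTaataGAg
Tsc22d2: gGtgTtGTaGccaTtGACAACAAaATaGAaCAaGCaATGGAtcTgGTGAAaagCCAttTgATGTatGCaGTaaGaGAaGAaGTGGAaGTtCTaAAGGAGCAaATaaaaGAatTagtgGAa
Tsc22d3: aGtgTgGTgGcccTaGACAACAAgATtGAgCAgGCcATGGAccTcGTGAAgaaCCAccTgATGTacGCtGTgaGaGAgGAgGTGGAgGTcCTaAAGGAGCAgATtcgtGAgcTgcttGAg
Tsc22d4: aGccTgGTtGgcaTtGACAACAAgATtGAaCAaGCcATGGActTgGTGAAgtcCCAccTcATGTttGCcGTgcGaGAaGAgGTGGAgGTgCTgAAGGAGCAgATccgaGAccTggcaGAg
In Tsc22d1 these bases lie in exon 2 (chr14:76505259-76505297) and exon 3 (chr14:76506417-76506497) of transcript Tsc22d1-202, on the plus strand. In Tsc22d2 they lie in exons 3 and 4 of Tsc22d2-201 (chr3:58459344-58459382 and chr3:58460008-58460088, plus strand). In Tsc22d3 they lie in exons 3 and 4 of Tsc22d3-203 (chrX:140542105-140542143 and chrX:140541027-140541107, minus strand), and in Tsc22d4 in exons 4 and 5 of Tsc22d4-202 (chr5:137758694-137758732 and chr5:137759067-137759147, plus strand). The exon boundary fell after base 39 of the stretch in every gene. Of the 120 bases, 74 were the same in all 4 genes. Tsc22d1 and Tsc22d2 were most alike, with 103 identical bases and a longest identical run of 32 bases, and Tsc22d2 and Tsc22d4 least alike, with 85.

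Even so, no 50-base word of any annotated transcript of Tsc22d1, Tsc22d2 or Wnk1 occurred, on either strand, in a GENCODE transcript of another gene (0 of 9286, 11289 and 23506 words). Tsc22d3 shared 20 of 4383 words with Gm8812, Nrbp1 shared 91 of 3945 with Gm9970, and Tsc22d4 shared 10 of 7498. No member shared a word with another member. The reads of the members could thus be told apart from each other at this word length, with the read length not given in the sources used here. Within the shared words, reads of Tsc22d3, Nrbp1 and Tsc22d4 could not be told from those of the other genes. The RefSeq table listed 1 gene that overlaps a member, Mir706 within Wnk1, which was not in the tables used here.

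Tsc22d1 (Entrez gene 21807, chr14:76414961-76507765) stood far above the rest of its family. Replicates 1, 2 and 3 had 631995, 603514 and 683272 of its counts, which made 23430, 23959 and 26167 CPM, a mean of 24519 ± 1452 CPM (SD, n = 3). Replicate 3 was highest, and the libraries lay within 1.12 times of each other. The 95% Clopper-Pearson intervals for counting error alone were 23373 to 23487, 23900 to 24019 and 26106 to 26229 CPM, so the libraries differed by more than counting error. The gene held rank 6 in each library. It took 3.03%, 3.20% and 3.40% of the counts outside the mitochondrial genes, and 99.1%, 99.2% and 99.2% of the counts of the TSC22 family. The other 5 members together gave 292, 274 and 303 CPM.

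**Figure D1:**
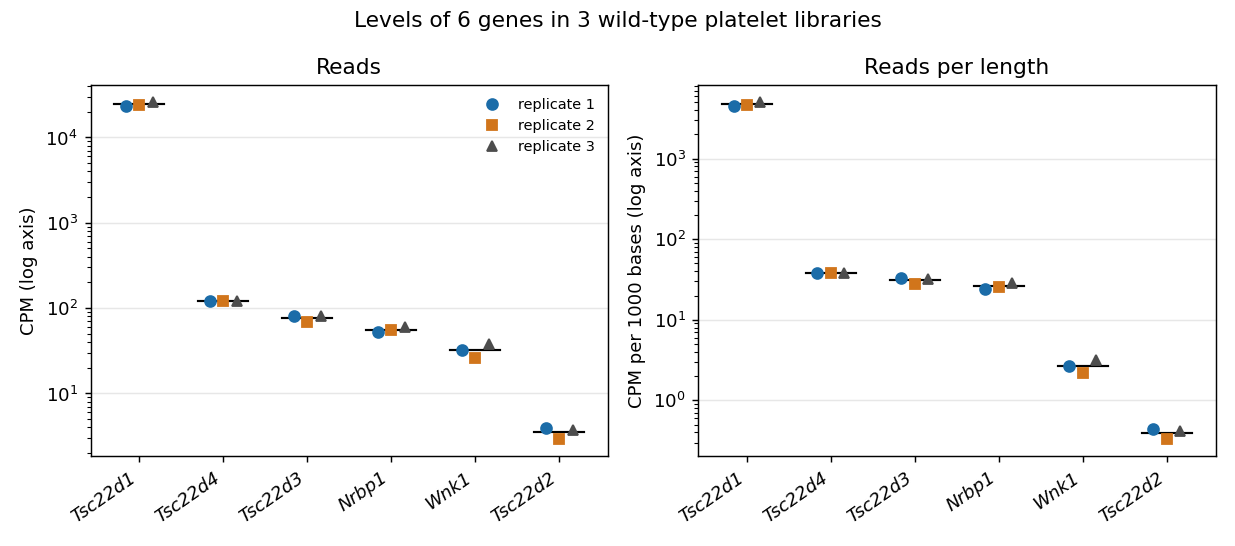
Level of each member in each library, as CPM (left) and as CPM per 1000 bases of gene length (right), both on log axes; points are replicates and bars the mean of 3. Tsc22d1 lies at 23430 to 26167 CPM, while the next gene, Tsc22d4, lies near 121 CPM.

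Levels of different genes are compared per length, as CPM per 1000 bases of the gene length given in the tables. On this scale Tsc22d1 was at 4541, 4643 and 5071, a mean of 4752 ± 281 (SD, n = 3), and its rank was 18 among all genes. This value depends on which of its transcripts the reads came from, which counts per gene do not tell. Tsc22d1 has 9 coding transcripts in the GENCODE basic set. The longest, Tsc22d1-204, has 4999 bases, and Tsc22d1-202, at 4818 bases, holds the longest coding sequence, 3231 bases. Tsc22d1-201, which starts near the 3′ end of the locus, has 1762 bases and a coding sequence of 429 bases. The tables give the gene 5160 bases, close to the long transcripts. If all reads came from Tsc22d1-201, the level per length would be 13915 ± 824 and its rank 10. This is not an upper limit, since shorter coding transcripts are annotated, down to the 670 bases of Tsc22d1-207. The stretch printed above is held whole by 4 of the 9 coding transcripts, Tsc22d1-201 to Tsc22d1-204.

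The starts of a long and of a short transcript are shown because they lie toward opposite ends of the gene, and gene counts cannot choose between them. Each window runs from 250 bases before to 50 bases after a RefSeq start (GRCm38.p6), on the plus strand, with CpG dinucleotides in capitals. The first RefSeq start is also the start of Tsc22d1-204 (window chr14:76414711-76415010). The second lies at base 76504510 (window chr14:76504260-76504559). That window holds the starts of Tsc22d1-201 (76504478) and Tsc22d1-206 (76504530).
long start: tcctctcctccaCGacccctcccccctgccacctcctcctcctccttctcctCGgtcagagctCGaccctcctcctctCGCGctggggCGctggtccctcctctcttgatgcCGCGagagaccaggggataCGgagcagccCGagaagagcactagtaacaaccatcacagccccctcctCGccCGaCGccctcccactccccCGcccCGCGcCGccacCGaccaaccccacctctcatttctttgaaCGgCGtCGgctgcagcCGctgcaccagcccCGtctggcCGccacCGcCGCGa
short start: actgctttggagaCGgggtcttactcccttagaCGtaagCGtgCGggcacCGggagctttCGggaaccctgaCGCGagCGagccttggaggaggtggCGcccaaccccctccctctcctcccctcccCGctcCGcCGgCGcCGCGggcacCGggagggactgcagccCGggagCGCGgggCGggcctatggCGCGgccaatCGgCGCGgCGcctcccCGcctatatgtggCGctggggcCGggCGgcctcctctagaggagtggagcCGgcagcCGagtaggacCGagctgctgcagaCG
The long start held 27 CpG dinucleotides and the short start 35, against a median of 7 over the 32851 windows of the same length in the RefSeq table. Of these windows, 84.5% held fewer than the long start and 93.0% fewer than the short start. Both lie in GC-rich sequence, at 69% and 72.7% against a median of 52.7%. The window of a further RefSeq start (76415821), in which Tsc22d1-202 starts at 76415587, held 31. Most of that window lies downstream of the start of Tsc22d1-202. The windows that hold the starts of Tsc22d1-203 and Tsc22d1-214 had 6 and 11. Windows were found for 4 of the 6 members: Nrbp1, with 24 CpG dinucleotides, Wnk1 with 32, and Tsc22d3 with 3 to 16 in its 3 windows, besides Tsc22d1.

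Tsc22d4 (Entrez gene 78829, chr5:137745969-137768453), which in mouse liver is known as a regulator of lipid metabolism, came next in the family. Its CPM was 122, 120 and 120 in replicates 1, 2 and 3, a mean of 120.9 ± 1.32 CPM (SD, n = 3), from 3303, 3033 and 3133 counts. These values lay closer together than those of any other member, with an SD of 1.09% of the mean against a counting error of 1.78%. That closeness depended on the scaling. With TMM factors (edgeR's trimmed mean scaling), the values were 128, 126 and 110 CPM, with replicate 3 lowest. Tsc22d1, by contrast, was more even after TMM scaling, at 24549, 25018 and 23918 CPM, and replicate 3 was then its lowest library.

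Tsc22d3 (Entrez gene 14605, chrX:140539528-140600522), the GILZ gene, whose protein restrains inflammatory signalling, was at 82.0, 69.2 and 80.4 CPM in replicates 1, 2 and 3, a mean of 77.2 ± 6.94 CPM (SD, n = 3). Replicate 2 was lowest by CPM. With DESeq2 size factors, a further scaling of the libraries, the values were 86.6, 73.5 and 71.0 CPM, and replicate 3 was lowest. Tsc22d2 (Entrez gene 72033, chr3:58414702-58466787), the least studied member, was at 3.89, 2.90 and 3.71 CPM, a mean of 3.50 ± 0.530 CPM, from only 105, 73 and 97 counts. Replicate 2 was again lowest by CPM. The intervals of the libraries overlapped (3.18 to 4.71, 2.27 to 3.64 and 3.01 to 4.53 CPM). The SD was 15.1% of the mean, against a counting error of 10.4%. By reads Tsc22d2 was close to the median gene of the tables (3.50 against 3.86 CPM). Per length it was below it, at 0.397 against a median of 1.49 CPM per 1000 bases, with rank 8016 of 9822. Tsc22d4 and Tsc22d3 had ranks 885 and 996 per length.

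**Figure D2:**
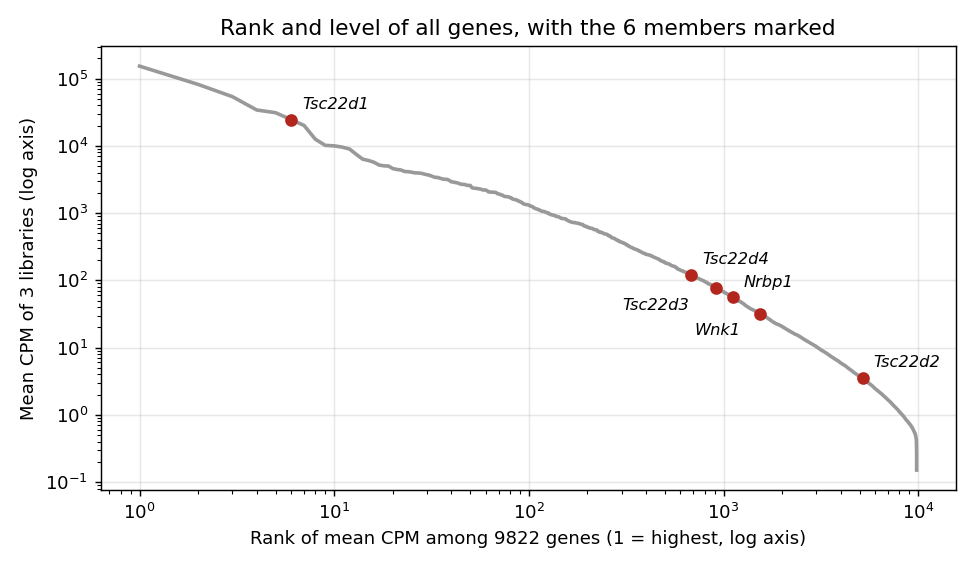
Mean CPM of every gene against its rank, both on log axes, with the members marked as points. Tsc22d1 has rank 6, Tsc22d4 rank 683, Tsc22d3 rank 917, Nrbp1 rank 1118, Wnk1 rank 1537 and Tsc22d2 rank 5183.

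Both partner genes were present at moderate levels. Nrbp1 (Entrez gene 192292, chr5:31228089-31251566), whose pseudokinase product is known in human cells also as an adaptor of a ubiquitin ligase, was at 52.1, 54.7 and 60.6 CPM in replicates 1, 2 and 3, a mean of 55.8 ± 4.37 CPM (SD, n = 3). Wnk1 (Entrez gene 232341, chr6:119923969-120038695) was at 32.0, 26.4 and 38.0 CPM, a mean of 32.1 ± 5.80 CPM, with replicate 3 highest and replicate 2 lowest. The SD of Wnk1 was 18.1% of its mean, the widest of the members, against a counting error of 3.45%. Replicate 3, the highest for Wnk1, also had the most B cell and T cell marker RNA (399 and 30.0 CPM in sum). The part of those cells in the Wnk1 level was not tested. After TMM scaling Wnk1 was at 33.5, 27.5 and 34.7 CPM. With DESeq2 size factors Wnk1 was at 33.8, 28.0 and 33.5 CPM, and replicate 1 was then highest. Nrbp1 was at 54.6, 57.2 and 55.4 CPM after TMM scaling. With DESeq2 size factors Nrbp1 was at 55.0, 58.1 and 53.5 CPM, with replicate 3 lowest. With the red cell markers left out of the library totals, Tsc22d1 was at 24633, 24085 and 26347 CPM and Wnk1 at 33.6, 26.5 and 38.2 CPM.

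Per length, the order of the members was Tsc22d1, Tsc22d4, Tsc22d3, Nrbp1, Wnk1 and Tsc22d2. Tsc22d4 was at 38.1 ± 0.415, Tsc22d3 at 31.0 ± 2.79, Nrbp1 at 26.0 ± 2.04, Wnk1 at 2.66 ± 0.481 and Tsc22d2 at 0.397 ± 0.0601 CPM per 1000 bases (SD, n = 3). Tsc22d1 lay above Tsc22d4 by a log2 difference of 6.96 ± 0.10, or 125 times, and by 8.51 if its reads came from the short transcript. Above Tsc22d3 the log2 difference was 7.26 ± 0.14, above Nrbp1 7.51 ± 0.03, above Wnk1 10.82 ± 0.21 and above Tsc22d2 13.56 ± 0.23. The ratio of Tsc22d1 to Nrbp1 had the smallest SD of these between libraries, which was picked out after the values were seen. Among neighbours, Tsc22d3 and Nrbp1 overlapped between libraries (27.8 to 32.9 and 24.3 to 28.2), with a log2 difference of 0.25 ± 0.17. They did not overlap by reads, where the log2 difference was 0.47, or with the length of the longest coding transcript (35.1 to 41.5 and 23.5 to 27.3). Tsc22d4 and Tsc22d3 did not overlap, with a log2 difference of 0.30 ± 0.13, but their order turned round when the length of the longest coding transcript was used, which put Tsc22d3 at 39.1 ± 3.52 and Tsc22d4 at 30.4 ± 0.331. Wnk1 lay below Nrbp1 by a log2 ratio of -3.30 ± 0.21 per length, although by reads the ratio was only -0.81. With 3 libraries an exact two-sided sign-flip test cannot go below 0.25, so these differences carry no p-value.

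All 6 members reached 1 CPM in every library, as did 77.7% of the 9822 genes of the tables. For the spread between libraries, each gene's quasi-likelihood dispersion was compared with the trend over all 8289 genes with a mean of at least 1 CPM. By edgeR's quasi-likelihood fit with Benjamini-Hochberg adjustment over all genes tested, 0 of the 6 members and 0.229% of genes (19) were called as varying more than the trend. Several red cell markers, whose sum was highest in replicate 1, were among the genes called. At an unadjusted p under 0.05, 0 members and 4.29% of genes (356) were called, and DESeq2's dispersion outliers held 0 members and 0.601% of genes (59). Wnk1 had the largest dispersion relative to the trend, at 1.55 times (edgeR quasi-likelihood, adjusted p = 0.982), and Tsc22d3 followed at 1.12 times (adjusted p = 0.982). Tsc22d1 had the smallest, at 0.0334 times the trend (adjusted p = 0.997), followed by Nrbp1 at 0.0644 times (adjusted p = 0.996). Such p-values do not show that the libraries were alike.

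**Figure D3:**
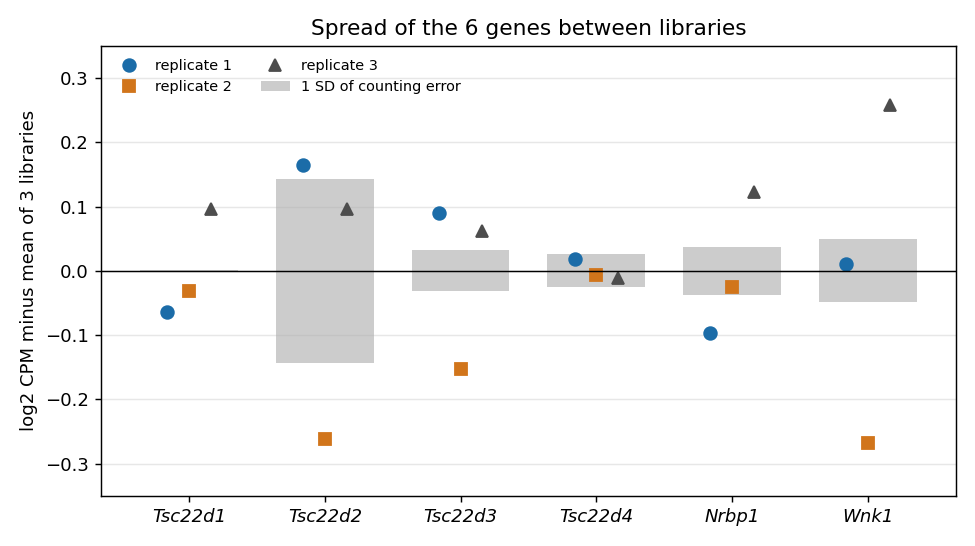
Deviation of each library from the gene's mean over the 3 libraries (log2 CPM, points are replicates) with 1 SD of counting error as a grey band. On this scale replicate 2 is lowest for Tsc22d2, Tsc22d3 and Wnk1, and replicate 1 for Tsc22d1 and Nrbp1. With DESeq2 size factors replicate 3 is lowest for Tsc22d1, Tsc22d3 and Nrbp1.

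The genes whose CPM was most like that of each member were found by the root-mean-square difference of log2 CPM over the 3 libraries. For Tsc22d1 these were Gng11 (0.30), Nrgn (0.35) and Fth1 (0.48), so no gene came closer than 0.30 on the log2 scale. Gng11 was at 19893, 21035 and 19437 CPM in replicates 1, 2 and 3. The other members lay where genes are denser, with Cpeb2 nearest to Tsc22d2 (0.04), Ppp1r13b to Tsc22d3 (0.05), H2bc6 to Tsc22d4 (0.03), Eif2ak1 to Nrbp1 (0.02) and Tns3 to Wnk1 (0.02). Fth1 and the histone gene H2bc6 have close copies in the genome, so their own levels are uncertain.

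Across 9 lists of genes of WNK, NRBP, transforming growth factor beta, glucocorticoid and GILZ signalling, with 50 symbols, 34 were in the tables. Of these, 27 were detected, beside 77.7% of all genes, with a median of 3.08 CPM against 3.86 CPM over all genes. Of the other WNK kinases only Wnk4 was in the tables. It was at 64.0, 60.3 and 78.7 CPM in replicates 1, 2 and 3. Per length Wnk4 was at 16.3 CPM per 1000 bases and Wnk1 at 2.66, a log2 ratio of 2.62 ± 0.10 (SD, n = 3), which was chosen after the values were seen. Downstream, Cab39, which encodes the scaffold MO25 that activates SPAK and OSR1, was at 171, 151 and 170 CPM. Oxsr1, the OSR1 kinase gene, was at only 2.34, 1.67 and 3.49 CPM, from 63, 42 and 91 counts, and Cab39l was at 3.53 ± 0.940 CPM. Stk39, which encodes SPAK, was not in the tables used here. Per length Cab39 was at 43.1 and Oxsr1 at 0.523 CPM per 1000 bases, a log2 ratio of 6.43 ± 0.46, also chosen after the values were seen.

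**Figure D4:**
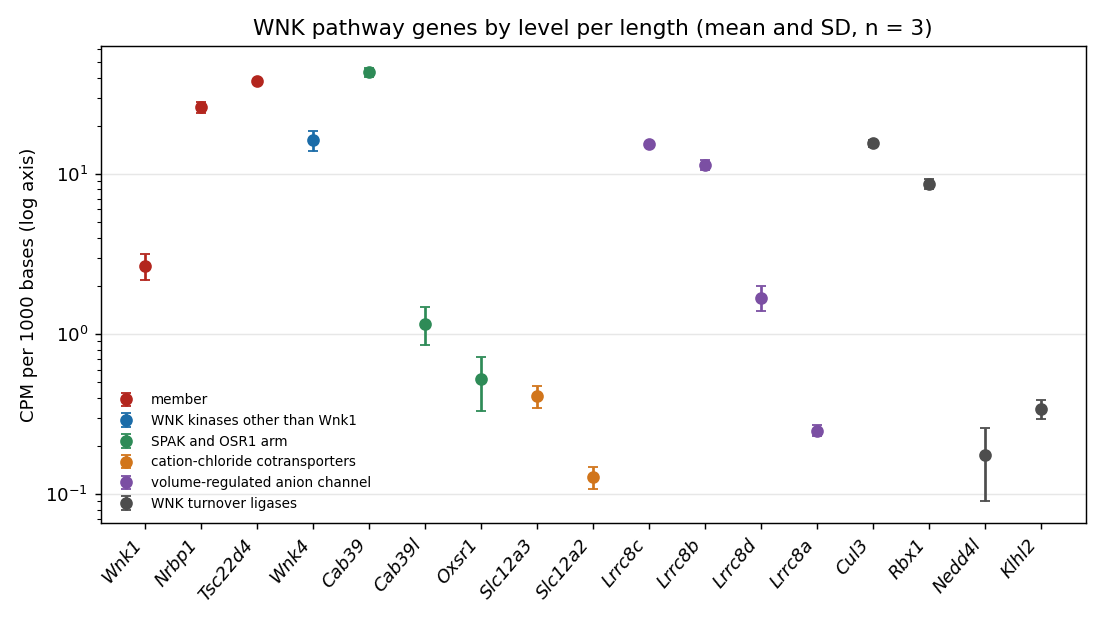
Level per length of Wnk1, Nrbp1 and Tsc22d4 (members, red) beside 5 lists of WNK pathway genes on a log axis, as mean and SD of 3 libraries. Nrbp1, Tsc22d4, Cab39, Wnk4, Lrrc8c, Lrrc8b and Cul3 lie above 10 CPM per 1000 bases, while Wnk1 lies at 2.66 and Oxsr1 at 0.523.

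Of the 8 cation-chloride cotransporter genes considered here, 2 were in the tables and 1 was detected, beside 77.7% of all genes. Slc12a3 was at 1.11, 1.39 and 1.53 CPM in replicates 1, 2 and 3 and Slc12a2, the widely expressed sodium-potassium-chloride cotransporter, at 0.853, 0.953 and 0.689 CPM. Of 5 genes of the volume-regulated anion channel 4 were in the tables and 3 were detected, led by Lrrc8c at 43.5 ± 0.854 CPM, Lrrc8b at 32.3 ± 2.28 CPM and Lrrc8d at 7.10 ± 1.23 CPM (SD, n = 3). Lrrc8a, which encodes the subunit that the channel cannot do without, was at 0.964, 1.11 and 1.11 CPM, from 26, 28 and 29 counts, and is named here after its values were seen.

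For the turnover of WNK kinases, 4 of 5 ubiquitin ligase genes were in the tables and 2 were detected, beside 77.7% of all genes. The scaffold gene Cul3 was at 42.8 ± 2.34 CPM (SD, n = 3), Rbx1 at 14.4 ± 0.956 CPM and the E3 ligase gene Nedd4l at 0.927, 1.27 and 2.34 CPM. Nrbp2, the paralogue of Nrbp1, was not in the tables used here, so that Nrbp1 was the only gene of its kind measured. Of the elongin ligase, with which human NRBP1 is known to associate, Eloc was at 43.7 ± 2.16 CPM and Elob at 21.4 ± 0.465 CPM. In that list 4 of 5 genes were in the tables and 3 were detected.

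In the list of transforming growth factor beta signalling 6 of 7 genes were in the tables and all 6 were detected, at a median of 3.08 CPM, beside 77.7% detected and a median of 3.86 CPM over all genes. Tgfb1, which encodes the ligand that platelets store, was at 182, 181 and 234 CPM in replicates 1, 2 and 3. It was followed by Smad4 at 4.37 ± 1.96 CPM and Smad2 at 3.106 ± 1.39 CPM (SD, n = 3), both highest in replicate 3. In the list of the glucocorticoid receptor and genes it induces 8 of 10 were in the tables and 6 were detected, at a median of 1.56 CPM. The receptor gene Nr3c1 was at 4.37, 2.74 and 6.66 CPM, from 118, 69 and 174 counts, Zbtb16 at 4.15 ± 0.222 CPM and Fkbp5 at 1.75 ± 0.424 CPM. Per length Tsc22d3, at 31.0 CPM per 1000 bases, lay above every gene of this list, the highest of which was Zbtb16 at 0.811. In the list of genes of GILZ signalling, 3 of the 4 considered here were in the tables and all 3 were detected. Nfkb1 was at 13.9, 16.1 and 26.5 CPM, Rela at 6.82, 8.61 and 13.9 CPM and Jun at 2.71 ± 0.263 CPM (SD, n = 3). Nfkb1 and Rela were highest in replicate 3, the library with the most B cell and T cell marker RNA, whose part in these levels was not tested. By the edgeR test of spread 0 of the 31 pathway genes tested were called after adjustment, and 4 had an unadjusted p under 0.05 (Nfkb1, Nr3c1, Rela and Smad4, named after their values were seen), beside 4.29% of all genes. DESeq2's dispersion outliers held 0 of the pathway genes.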

How the data were processed

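Each library has 1 deposited table of raw read counts by Entrez gene, with the length of each gene in bases. A Norgen kit and Illumina TruSeq libraries were used, per the labels' protocols. The submitters' processing notes name featureCounts, Subread, CASAVA 1.8.2, edgeR 3.11.5 and build mm10. Annotation, strand and multi-mapping settings, and the rule by which genes were kept in the tables, are not given in these sources.

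CPM used the plain total of counts per library. Symbols came from the RefSeq table for GRCm38.p6, which matched 9636 of 9822 genes. Detection meant 1 CPM or more in all 3 libraries. The spread test used edgeR 4.0.16 (R 4.3.3) with TMM factors of 0.954, 0.958 and 1.09, an intercept only and an upper-tail F test against the trend. On simulated counts of 8289 genes, with 50 genes changed per fold in 1 library, it found 0 of 50 at 2-fold, 34 at 4-fold and 50 at 8-fold, with 0 false calls. Every simulated gene had the dispersion of the trend, without the scatter of real genes around it. The simulation therefore does not give the recovery or the false calls to be had in the real libraries. Intervals are Clopper-Pearson at 95%. DESeq2 1.42.0 gave alternative scaling and dispersion outliers. Other steps used Python 3.11.15 and SciPy 1.17.1. The members were always named, with the 3 highest genes of each pathway list and the genes nearest to each member. Members and lists were chosen with earlier results of these data known. No batch term could be fitted. A few genes of the pathway lists are not reported here and were left out of their counts.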

Additional observations from a re-analysis of the deposited data

How the results depend on the processing

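Tsc22d1 stayed above and Tsc22d2 below all other members with each length tried and by reads. The ratios of Tsc22d1 to each other member and of Wnk1 to Nrbp1 kept their sign, while Tsc22d4 and Tsc22d3 changed places with the longest coding transcript. Ratios among pathway genes were not recomputed. Library totals without the 10 highest genes put the mean CPM at 43191 for Tsc22d1, 6.15 for Tsc22d2, 136 for Tsc22d3, 213 for Tsc22d4, 98.3 for Nrbp1 and 56.4 for Wnk1, since every total shrinks. Without the red cell markers in the total, Tsc22d4 was at 124 CPM, beyond its SD. Without length scaling, the log2 ratios of Tsc22d1 to Tsc22d2, Tsc22d3, Tsc22d4, Nrbp1 and Wnk1 were 12.78, 8.31, 7.66, 8.78 and 9.59, and that of Wnk1 to Nrbp1 was -0.81. With the longest coding transcript they were 6.97 for Tsc22d3, 7.33 for Tsc22d4 and 7.61 for Nrbp1. With Tsc22d1 at the length of its short transcript, an alternative chosen after seeing the data, the 5 ratios were 15.11, 8.81, 8.51, 9.06 and 12.37.

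Leaving out each replicate in turn gave mean CPM ranges of 23694 to 25063 (Tsc22d1), 3.31 to 3.80 (Tsc22d2), 74.8 to 81.2 (Tsc22d3), 120.2 to 121.4 (Tsc22d4), 53.4 to 57.7 (Nrbp1) and 29.18 to 34.97 (Wnk1). The log2 ratio ranges were 13.44 to 13.67, 7.20 to 7.34, 6.91 to 7.002, 7.498 to 7.53 and 10.70 to 10.90 for Tsc22d1 to Tsc22d2, Tsc22d3, Tsc22d4, Nrbp1 and Wnk1, and -3.37 to -3.18 for Wnk1 to Nrbp1. The count of genes called in the spread test was 30 with DESeq2 size factors, 11 with plain totals, 11 with a filter of 5 CPM, 59 by DESeq2 dispersion outliers and 0 with a robust prior, where 396 had an unadjusted p under 0.05. It was 1 without replicate 1, the library with the most red cell RNA, 29 without replicate 2 and 32 without replicate 3. The cause of these changes was not tested. No member was called under any of them (adjusted p 0.965 to 0.998 over 47 alternative values). No paired analysis was possible because there is 1 group.

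At 105, 73 and 97 counts, Tsc22d2 is the member whose level depth limits most. Counts per gene do not separate the long from the short Tsc22d1 transcripts.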
